A study of Mus musculus with 4 samples.

Results

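The 40 genes described here are grouped by what their families do to acyl groups on histone lysines. The groups are enzymes that place them (15 writers and writer subunits), enzymes that remove them (18 erasers) and proteins that bind them (7 readers). Some erasers act mainly on other substrates, as given below for Hdac6 and Hdac10. The 40 genes were chosen by symbol from a table of regions of H3K23 propionylation in mouse heart. It lists 17640 genes, and all 40 were found. A gene stands here for the region that lists it with its middle closest to the gene's start, which gave 40 different regions of the 29210 in the table. The question asked of them was how much of the propionyl mark lies on the genes of its own machinery, and how that amount compares between diets and between surgeries.

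Propionylation of lysine 23 of histone H3 (H3K23) was measured by ChIP-seq, which counts DNA fragments bound by an antibody against the propionylated lysine. The hearts came from male C57Bl/6J mice aged 12 weeks. In the first group, mice on a diet from which the branched-chain amino acids had been left out (BCAA-free) underwent transverse aortic constriction (TAC), a narrowing of the aorta that loads the left ventricle with pressure. The second group ate the BCAA-free diet and had sham surgery, the third ate the BCAA-control diet and underwent TAC, and the fourth ate the BCAA-control diet and had sham surgery. Surgery followed 4 days on the diet, and the hearts were collected after 1 more week on it. Each group had 1 library from a pool of 3 hearts, so no difference below has a replicate check, and the words higher and lower compare libraries. No input library is used here, and the sources used here do not give the scaling between libraries, so a change of equal size in all regions could not be told from scaling. A lower signal from fewer cells of a type and a lower signal per cell cannot be told apart in whole-heart chromatin.

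Acetyltransferases of several families accept propionyl-CoA as well as acetyl-CoA. Complexes of KAT6A or KAT6B with a BRPF scaffold, ING5 and MEAF6 acylate H3K23, and KAT7 joins the same scaffolds. Zinc-dependent histone deacetylases (HDACs) and NAD-dependent sirtuins cleave acyl groups, and bromodomains, YEATS domains and double PHD fingers bind acylated lysines. Propionyl-CoA arises from the catabolism of isoleucine and valine, among other sources. In the heart, class IIa HDACs are known as signal-dependent partners of MEF2 transcription factors that restrain hypertrophic gene programmes.

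The promoter sequences of 6 members show the range of DNA under these regions. Brd2 had the highest signal, Kat7, Brpf1 and Kat6b encode parts of H3K23 writer complexes, and Hdac6 and Hdac9 varied most between libraries. Each is 300 bases from RefSeq (build GRCm38.p6), 250 before to 50 after an annotated start inside the region, written 5′ to 3′ on the gene's strand, with CpG dinucleotides in capitals. Some members have several such starts in the region, and the one that comes first in the RefSeq table is shown. The Hdac9 start is an internal one, and another annotated start of this gene lies far upstream.
Brd2: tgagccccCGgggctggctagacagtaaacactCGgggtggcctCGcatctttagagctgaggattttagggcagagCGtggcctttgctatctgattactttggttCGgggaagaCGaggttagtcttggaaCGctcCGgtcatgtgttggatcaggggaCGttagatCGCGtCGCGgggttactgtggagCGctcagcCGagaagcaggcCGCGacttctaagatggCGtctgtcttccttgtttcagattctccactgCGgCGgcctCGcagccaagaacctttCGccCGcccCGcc
Kat7: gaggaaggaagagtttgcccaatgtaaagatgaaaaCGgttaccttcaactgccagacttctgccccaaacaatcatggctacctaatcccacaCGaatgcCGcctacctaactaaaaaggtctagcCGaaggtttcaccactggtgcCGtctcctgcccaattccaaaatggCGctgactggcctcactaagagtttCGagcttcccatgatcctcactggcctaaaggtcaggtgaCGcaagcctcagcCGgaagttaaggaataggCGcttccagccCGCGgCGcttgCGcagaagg
Brpf1: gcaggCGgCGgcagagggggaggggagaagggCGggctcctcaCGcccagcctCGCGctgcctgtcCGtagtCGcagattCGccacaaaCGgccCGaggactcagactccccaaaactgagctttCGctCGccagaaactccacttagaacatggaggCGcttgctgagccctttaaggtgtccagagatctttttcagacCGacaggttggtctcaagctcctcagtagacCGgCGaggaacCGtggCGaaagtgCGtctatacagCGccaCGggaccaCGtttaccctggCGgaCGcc
Kat6b: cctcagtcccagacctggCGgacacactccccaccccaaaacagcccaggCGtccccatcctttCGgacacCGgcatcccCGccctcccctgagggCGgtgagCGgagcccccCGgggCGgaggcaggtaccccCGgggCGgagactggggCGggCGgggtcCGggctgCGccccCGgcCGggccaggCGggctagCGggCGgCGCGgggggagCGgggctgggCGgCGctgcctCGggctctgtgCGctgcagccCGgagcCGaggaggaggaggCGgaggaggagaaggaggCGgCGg
Hdac6: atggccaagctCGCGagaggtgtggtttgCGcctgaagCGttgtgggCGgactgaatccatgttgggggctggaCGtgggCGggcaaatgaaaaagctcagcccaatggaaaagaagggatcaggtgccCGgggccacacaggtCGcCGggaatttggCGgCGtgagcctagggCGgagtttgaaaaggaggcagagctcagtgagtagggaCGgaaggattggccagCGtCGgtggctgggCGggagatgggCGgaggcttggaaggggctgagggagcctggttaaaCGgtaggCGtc
Hdac9: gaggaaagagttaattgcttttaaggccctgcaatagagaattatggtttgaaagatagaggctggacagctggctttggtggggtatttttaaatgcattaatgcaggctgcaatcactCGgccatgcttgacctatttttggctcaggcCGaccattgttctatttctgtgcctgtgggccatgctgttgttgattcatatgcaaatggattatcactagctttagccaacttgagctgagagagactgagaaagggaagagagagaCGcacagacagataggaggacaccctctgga
These windows lie at chr17:34119851-34120150 on the minus strand for Brd2, chr11:95310197-95310496 on the minus strand for Kat7, and chr6:113306887-113307186 on the plus strand for Brpf1. The Kat6b window is chr14:21499520-21499819 on the plus strand, the Hdac6 window chrX:7947840-7948139 on the minus strand, and the Hdac9 window chr12:34528840-34529139 on the minus strand. They hold 24 CpG dinucleotides at Brd2, 14 at Kat7, 25 at Brpf1, 32 at Kat6b, 20 at Hdac6 and 3 at Hdac9, the lowest number among the members.

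A RefSeq promoter window inside the region was available for 34 members. Their median number of CpG dinucleotides was 22.5, against 7 over all 32851 windows of the table, and their median GC content was 61.8%, against 52.7%. The GC box GGGCGG, read on both strands, was present in 25 of 34 windows (73.5%), against 35.7% of all windows. The ETS core CCGGAAG was present in 10 (29.4%, against 8.86%), Kat7, Kat8 and Sirt6 among them. The box CCAAT was present in 16 (47.1%, against 37.4%). TATAAA was found at Hdac8 alone (2.94%, against 13.6%), and the MEF2 motif at Hdac5 alone (2.94%, against 1.86%). In the deposited table, 33 of the 40 regions held a CpG island (82.5%, against 72.8% of all genes), and the 7 without one were those of Kat2a, Kat8, Brd1, Ing4, Hdac4, Hdac8 and Hdac9. All motifs were read on both strands, and a MEF2 match can contain TATAAA. A motif match describes the letters of the window and does not show that a factor binds there. The 34 windows all lie in a region of the mark, 29 of them in one with a CpG island. The windows of all genes were not selected in this way, so it cannot be told whether the contrasts are particular to the members.

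Levels are given as the average signal, the mean density of fragments over a region as the authors deposited it, which is already per length. The median over the members was 8.74, close to 8.60 over all genes, and 21 of 40 members were above that value of all genes. Their regions were somewhat longer, with a median of 9300 bases against 7600 over all genes and a range of 2000 to 56200. A peak had been called in all 4 libraries for 37 members (92.5%, against 81.3% of all genes). Among genes whose region holds a promoter and a CpG island the share was 90.2%. Hdac8 and Mllt1 lacked a call in the control sham library and Sirt4 in the control TAC library. The estimated tags behind a single value ran from 44.3 at Hdac8 to 4112 at Dpf2, with a median over members of 351.

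**Figure D1:**
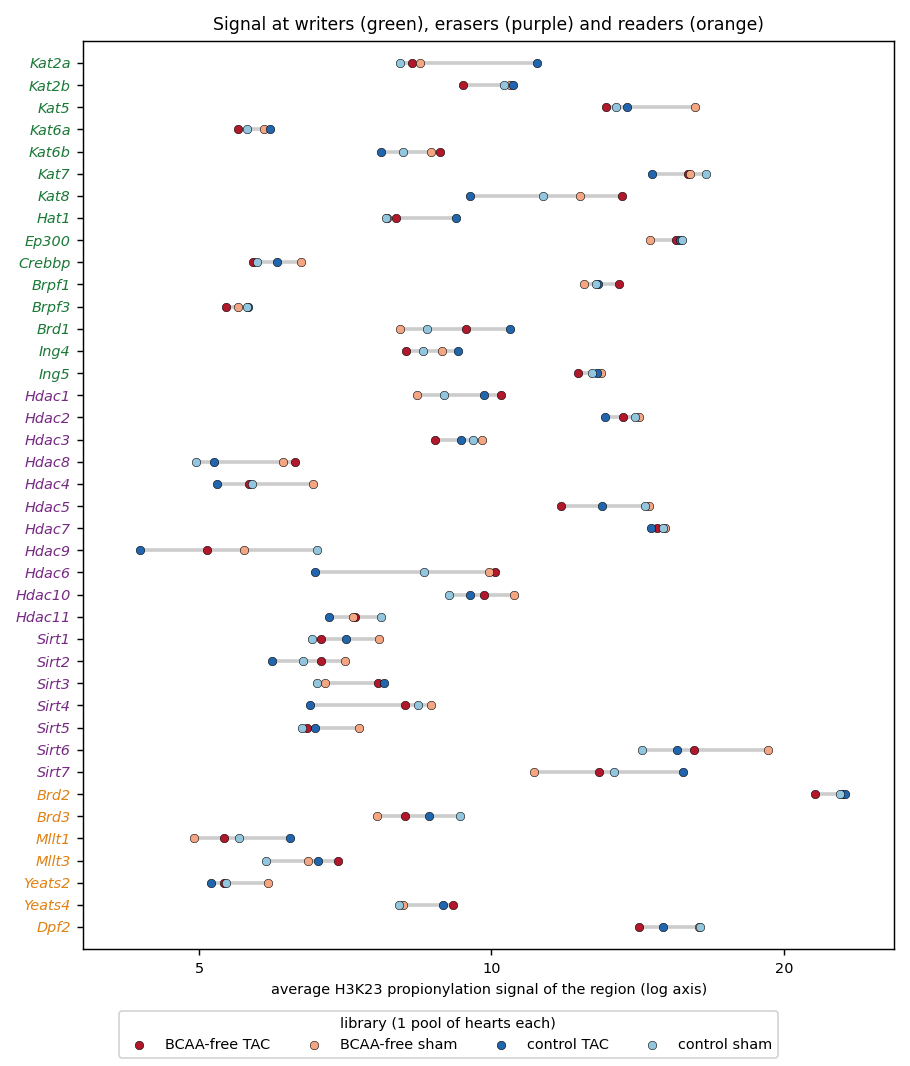
Average H3K23 propionylation signal (log axis) of the region of each of the 40 genes, 1 point per library and a grey line from the lowest to the highest library. Genes differ far more from each other, from 5.40 at Hdac9 to 22.6 at Brd2 in mean signal, than the 4 libraries do at most genes. The lines are longest at Hdac6 and Hdac9.

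The regions differed widely in extent as well as in level. Dpf2 lay in a region of 56200 bases that also lists Tigd3, Cdc42ep2 and Pola2 and reaches far upstream of its start. Hdac7 (44400 bases), Kat6a (43200) and Kat2b (37800) had regions that ran mostly into the gene. Hdac6 and Hdac8, both on chromosome X, had the shortest regions, of 2000 bases. The region was listed for the member alone in 20 cases and shared with other genes in 20, and a value of a shared region cannot be split between its genes. Where RefSeq gave a start on the same chromosome (36 members), the region covered it for 34. The regions of Kat2a and Hdac4 did not.

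**Figure D2:**
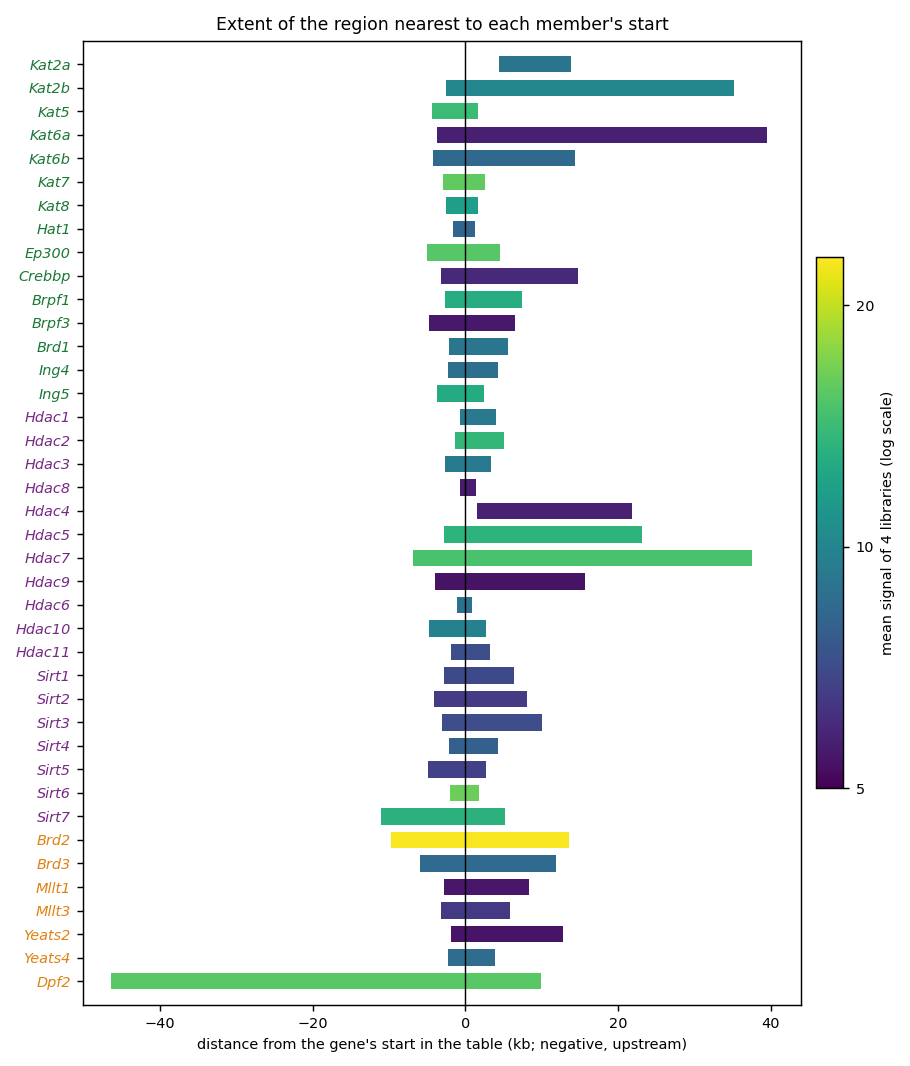
Extent of the region nearest to the start of each gene, in kb from the start with upstream negative, coloured by the mean signal of the 4 libraries on a log scale. Long bars with low signal (Kat6a, Crebbp) and short bars with high signal (Kat7, Sirt6) both occur, and the bars of Kat2a and Hdac4 do not reach the start.

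In the 4 comparisons, 0 of 40 members were higher and 0 lower by more than 1.5-fold (a log2 ratio past 0.58, a threshold of size that is no test). Over all genes, 0.85% were higher and 0.68% lower in TAC than in sham on the BCAA-free diet, and 2.83% were higher and 2.1% lower in TAC than in sham on the control diet. In BCAA-free against control hearts, 0.402% of genes were higher and 0.488% lower with TAC, and 1.03% were higher and 0.471% lower with sham surgery. At these shares a list of 40 genes would hold few or none, and 7.24% of all genes passed in at least 1 of the 4 comparisons. Among genes whose region, as in 33 members, holds a promoter and a CpG island, 0.37% passed in either direction in TAC over sham on the BCAA-free diet and 1.54% on the control diet. A count of 0 among 40 members does not set them apart from these shares. The count also depends on the measure: with no number added to the signals, Hdac9 (-0.60 in TAC over sham on the control diet) and Hdac6 (0.61 in BCAA-free over control TAC hearts) passed, as did 3.16% and 0.828% of all genes in those directions. By the height of the peak, 7 ratios of members passed, all upwards. They were 3 in TAC over sham on the control diet, where 7.55% of all genes passed upwards, 3 in BCAA-free over control sham hearts (5.33% of all genes) and 1 in BCAA-free over control TAC hearts (2.82%), numbers near those shares of 40 genes.

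Ratios throughout are log2 of the quotient of average signals after adding 1 to each, a scale that understates differences at low signal. The median ratio of TAC over sham was -0.04 over the members on the BCAA-free diet, against -0.03 over all genes, and 0.02 on the control diet, against 0.05 over all genes. BCAA-free over control gave -0.01 with TAC, against -0.04, and 0.03 with sham surgery, against 0.04. With the libraries scaled to the same median the members' medians became 0.01 and 0.01 for TAC on the BCAA-free and control diets, and 0.01 and -0.01 for diet with TAC and sham surgery, so their signs carry no direction. Typical ratios were small: the median absolute ratio of the members was 0.10 on both diets for TAC, where the median standard error that counting gives a member's ratio was also 0.10. Over all genes it was 0.12 on the BCAA-free diet and 0.15 on the control diet. Among genes whose region holds a promoter and a CpG island it was 0.11 and 0.13. Within the members, the ratio of the highest to the lowest library had a median of 1.17, against 1.23 over all genes. It exceeded 1.5 at 2 members (5%), Hdac6 (1.53) and Hdac9 (1.52), against 13.8% of all genes. Among genes whose region holds a promoter and a CpG island, the median was 1.20 and the share 5.74%, so the members are not set apart from these.

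**Figure D3:**
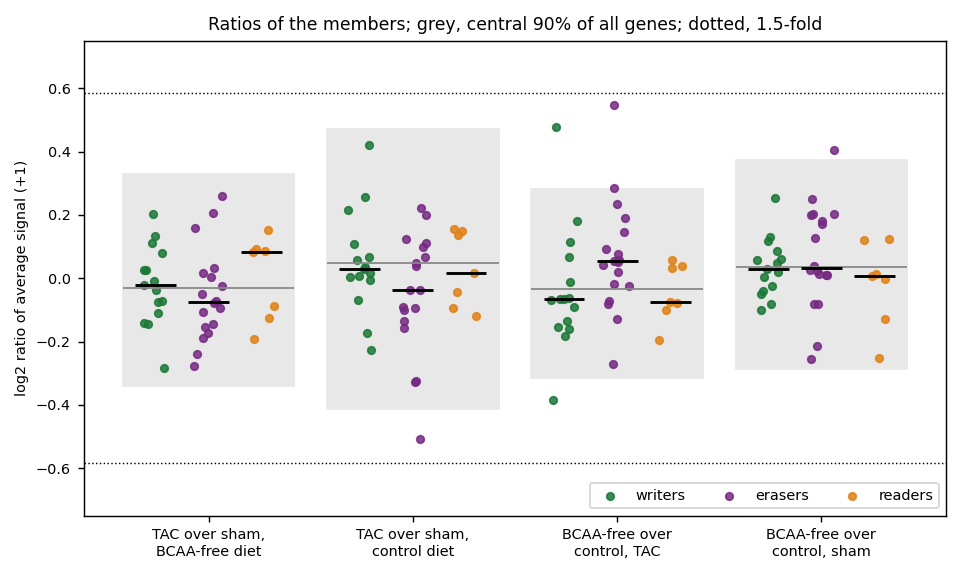
Log2 ratios of the members by role in the 4 comparisons, each point 1 gene, black bars the medians by role, grey boxes the central 90% of all genes with their median as a grey line, dotted lines 1.5-fold. No point passes a dotted line, and Hdac6 (0.55) and Hdac9 (-0.51) come closest.

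Among the writers, Kat6a and Kat6b encode the paralogous MYST acetyltransferases of H3K23. Kat6a (region chr8:22855800-22898999 in mm10, the build of all positions here) had a low signal of 5.48 in BCAA-free TAC, 5.83 in BCAA-free sham, 5.91 in control TAC and 5.60 in control sham hearts. Kat6b (chr14:21495600-21514199) had 8.84, 8.67, 7.69 and 8.11 in the same order of libraries. Its level was higher than that of Kat6a in each library, and neither gene had a library far from the others. Kat6b combined a middling average with a sharp summit: its mean peak height was 105, which is 12.6 times its average signal, the highest such quotient among the members. BCAA-free over control hearts with TAC gave 0.18 at Kat6b (95% interval from counting error alone, 0.04 to 0.32).

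Kat7 (HBO1), which shares BRPF scaffolds with KAT6 and acylates H3 and H4, had one of the strongest regions (chr11:95307600-95313199). It read 15.9 in BCAA-free TAC, 16.0 in BCAA-free sham, 14.6 in control TAC and 16.6 in control sham hearts. The control TAC library was the lowest, with a ratio to control sham of -0.17 whose interval (-0.36 to 0.02) includes 0. Brpf1, the scaffold that targets these enzymes to H3K23 (chr6:113304600-113314599), had 13.5, 12.5, 12.9 and 12.8 in the same order, in a region shared with Cpne9. Its 4 ratios lay between -0.04 and 0.11, all with intervals that include 0. Of the other scaffolds, Brpf3 had a mean of 5.51 and Brd1 (BRPF2) one of 9.12. Ing5 and Ing4, PHD-finger subunits that recognise methylated H3K4, had means of 12.7 and 8.70.

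Brd1 had a signal of 9.41 in BCAA-free TAC against 8.06 in BCAA-free sham hearts, and 10.4 in control TAC against 8.59 in control sham hearts. It was thus higher in TAC on both diets, by 0.20 on the BCAA-free diet (interval from just under 0 to 0.41) and by 0.26 on the control diet (0.06 to 0.45).

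The coactivators p300 and CBP, paralogous enzymes with broad substrate range, differed in level. Ep300 had 15.5 in BCAA-free TAC, 14.6 in BCAA-free sham, 15.6 in control TAC and 15.7 in control sham hearts. Crebbp had 5.68, 6.36, 6.01 and 5.73 in the same order, in a region of 18000 bases against 9600 at Ep300. In every library Ep300 was more than 2 times Crebbp, and all 4 ratios of each gene had intervals that include 0.

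Kat2a (GCN5), the catalytic subunit of SAGA and ATAC, had the highest TAC ratio of any member on the control diet. Its signal was 8.29 in BCAA-free TAC, 8.44 in BCAA-free sham, 11.1 in control TAC and 8.06 in control sham hearts. The control TAC library stood above the other 3, which lay between 8.06 and 8.44. The ratio of TAC over sham was -0.02 on the BCAA-free diet (-0.21 to 0.17) and 0.42 on the control diet (0.24 to 0.60), and BCAA-free over control with TAC was -0.39 (-0.57 to -0.20). This region (chr11:100698600-100707999) also lists Dhx58, Hspb9 and Rab5c and does not cover an annotated Kat2a start. A neighbouring region of 33800 bases that lists Kat2a as well had a stronger mean signal of 14.0 and TAC ratios of 0.11 on the BCAA-free diet and 0.08 on the control diet. By the deposited distances, this neighbouring region holds the Kat2a start, and the values before it are those of a region downstream of the start. Kat2b (PCAF), the paralogue of Kat2a, was alone in its region. It had a mean of 10.1 and TAC ratios of -0.15 (-0.24 to -0.06) and 0.03 (-0.06 to 0.11) on those diets.

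Kat8 (MOF), the catalytic subunit of the MSL and NSL complexes, shared its region with Bckdk, the kinase that inhibits the branched-chain ketoacid dehydrogenase. The region (chr7:127910000-127914199) read 13.6 in BCAA-free TAC, 12.3 in BCAA-free sham, 9.51 in control TAC and 11.3 in control sham hearts. Both BCAA-free libraries were above both control libraries. The ratio of BCAA-free over control was 0.48 with TAC (0.22 to 0.73) and 0.12 with sham surgery (-0.13 to 0.36). TAC over sham was 0.13 on the BCAA-free diet (-0.11 to 0.37) and -0.23 on the control diet (-0.49 to 0.03).

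Kat5 (TIP60), the catalytic subunit of NuA4, shared its region with Rnaseh2c. The region had 13.1 in BCAA-free TAC, 16.2 in BCAA-free sham, 13.8 in control TAC and 13.4 in control sham hearts. The BCAA-free sham library stood above the other 3. The ratio of TAC over sham on the BCAA-free diet was -0.28 (-0.47 to -0.09) and that of BCAA-free over control with sham surgery was 0.25 (0.06 to 0.44). Hat1, which acetylates newly made histone H4, had a mean of 8.18 and was highest in control TAC hearts at 9.18, but all 4 of its intervals include 0. The 15 writers as a group had median TAC ratios of -0.02 on the BCAA-free diet and 0.03 on the control diet, with 6 (40%) and 11 (73.3%) of 15 above 0, against 43.0% and 59.4% of all genes. With the libraries scaled to the same median, 9 of 15 were above 0 on each diet and the median on the BCAA-free diet was 0.03.

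Class I HDACs are nuclear enzymes of corepressor complexes, and HDAC1, HDAC2 and HDAC3 remove several short acyl groups. Hdac1 had 10.2 in BCAA-free TAC, 8.39 in BCAA-free sham, 9.83 in control TAC and 8.94 in control sham hearts. Both TAC libraries were above both sham libraries, with ratios of 0.26 on the BCAA-free diet (0.00 to 0.51), the highest of any member there, and 0.12 on the control diet (-0.13 to 0.38). The region (chr4:129538600-129543399) is shared with Lck, a kinase of T cells. Hdac2, alone in its region, had 13.7, 14.2, 13.1 and 14.1 in the same order of libraries. Hdac3, in a region shared with Rell2 and Fchsd1, had 8.74, 9.77, 9.31 and 9.57. Both genes had the lower signal in TAC on each diet, but the intervals of all their ratios include 0, and the ratio of Hdac2 on the BCAA-free diet turns from -0.05 to 0.01 with the libraries scaled to the same median. Hdac8, the fourth member of the class, had a low mean of 5.63 and rested on 44.3 to 55.9 estimated tags per library.

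The class IIa genes Hdac4, Hdac5, Hdac7 and Hdac9 were lower in TAC than in sham at 4 of 4 start regions on both diets, with medians of -0.15 on the BCAA-free diet and -0.12 on the control diet. Scaled to the same median, 3 of 4 were lower on the BCAA-free diet, where Hdac7 turned to 0.03, and 4 of 4 on the control diet. Over all genes, 43.0% were above 0 on the BCAA-free diet and 59.4% on the control diet, so on the BCAA-free diet most genes lay below 0 as well. Hdac5, a repressor of hypertrophic growth that leaves the nucleus when phosphorylated (chr11:102207000-102232999), had 11.8 in BCAA-free TAC against 14.5 in BCAA-free sham hearts, and 13.0 in control TAC against 14.4 in control sham hearts. The ratios were -0.28 (-0.37 to -0.18) and -0.13 (-0.23 to -0.04) on those diets. Hdac9, a paralogue that in muscle exists also as a form without the deacetylase domain (chr12:34513200-34532799), had 5.09 in BCAA-free TAC, 5.56 in BCAA-free sham, 4.35 in control TAC and 6.61 in control sham hearts. The control pair spanned the other 2 libraries. TAC over sham was -0.11 on the BCAA-free diet (-0.26 to 0.05) and -0.51 on the control diet (-0.67 to -0.35), the lowest ratio of any member. Hdac7, known for its role in endothelial cells, was the most even member, with 14.8, 15.1, 14.6 and 15.0 in the order given for Hdac9 and a coefficient of variation of 1.48%. Its ratios were -0.03 (-0.09 to 0.04) and -0.04 (-0.11 to 0.03) for TAC on those diets.

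At Hdac4 the lower signal in TAC extended over all of its listed regions, 5 inside the gene and 1 downstream. The region nearest to its start, which does not cover the annotated start, read 5.63 in BCAA-free TAC against 6.55 in BCAA-free sham hearts, and 5.21 in control TAC against 5.66 in control sham hearts. Its strongest region lay inside the gene, 39894 bases from the start and 23400 bases long (chr1:92096800-92120199), with 10.5 in BCAA-free TAC against 13.7 in BCAA-free sham hearts, and 9.82 in control TAC against 14.1 in control sham hearts. All 6 had ratios below 0 on both diets, from -0.34 to -0.07 on the BCAA-free diet and from -0.48 to -0.10 on the control diet, and all 6 stayed below 0 on both diets with the libraries scaled to the same median, the highest at -0.01. Of the 5 regions of Hdac9, 3 were below 0 on the BCAA-free diet and 5 on the control diet. The Hdac9 region 55090 bases from the start had a peak call only in the sham libraries. Regions of 1 gene are neighbours in the same libraries and are not independent.

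**Figure D4:**
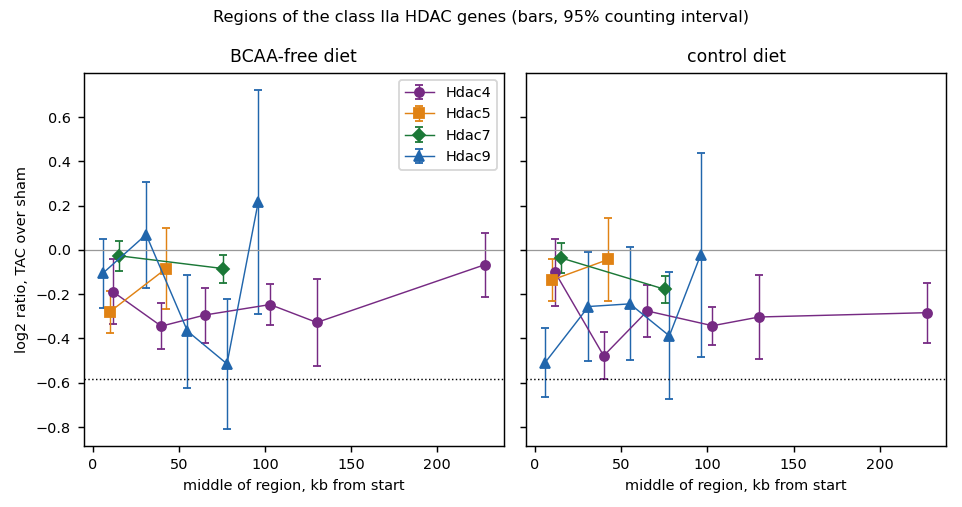
Log2 ratio of TAC over sham at each region listing Hdac4, Hdac5, Hdac7 or Hdac9, by the distance of its middle from the gene's start, for the BCAA-free diet (left) and the control diet (right). Bars are 95% intervals from counting error alone. All 6 Hdac4 regions lie below 0 on both diets, by 0.07 or more, while Hdac7 lies so near 0 on the BCAA-free diet that scaling the libraries to the same median turns it to 0.03.

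Hdac6, a class IIb enzyme that acts on tubulin in the cytoplasm (chrX:7947000-7948999), varied most of all members, with a coefficient of variation of 18.5%. It had 10.1 in BCAA-free TAC, 9.95 in BCAA-free sham, 6.59 in control TAC and 8.52 in control sham hearts. Both BCAA-free libraries were above both control libraries. BCAA-free over control was 0.55 with TAC (0.13 to 0.97), the highest of any member and just inside 1.5-fold, and 0.20 with sham surgery (-0.20 to 0.60). TAC over sham was 0.02 on the BCAA-free diet (-0.37 to 0.40) and -0.33 on the control diet (-0.76 to 0.11). These values rest on 58.8 to 89.9 estimated tags per library, and the intervals are wide. Hdac10, which deacetylates polyamines, and Hdac11, the class IV enzyme, had means of 9.73 and 7.23, and all TAC ratios of both had intervals that include 0.

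The sirtuins had a median signal of 7.19, below the 8.60 of all genes, and 2 of 7 stood above it. Sirt6 and Sirt7 were these 2, both chromatin-bound nuclear enzymes. Sirt6, in a region shared with Ankrd24 (chr10:81625800-81629599), had 16.2 in BCAA-free TAC, 19.3 in BCAA-free sham, 15.5 in control TAC and 14.3 in control sham hearts. The BCAA-free sham library was the highest, with a ratio to control sham of 0.41 (0.18 to 0.63), and TAC over sham was -0.24 on the BCAA-free diet (-0.46 to -0.02) and 0.11 on the control diet (-0.12 to 0.35). Sirt7 had 12.9, 11.0, 15.8 and 13.4 in the same order of libraries, in a region shared with Pcyt2, Mafg and Pycr1 (chr11:120619800-120635999). It was higher in TAC on both diets, by 0.21 on the BCAA-free diet (0.08 to 0.33) and by 0.22 on the control diet (0.11 to 0.34). It was lower on the BCAA-free diet with both surgeries, at -0.27 with TAC (-0.39 to -0.15) and -0.25 with sham surgery (-0.38 to -0.13).

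Sirt5, the sirtuin of the acidic malonyl, succinyl and glutaryl groups, had 6.46 in BCAA-free TAC, 7.30 in BCAA-free sham, 6.58 in control TAC and 6.38 in control sham hearts, and all 4 ratios had intervals that include 0. Sirt4, a mitochondrial sirtuin whose region also lists Pla2g1b, was lowest in control TAC hearts. It had 8.15 in BCAA-free TAC, 8.66 in BCAA-free sham, 6.50 in control TAC and 8.41 in control sham hearts. Its TAC ratio was -0.08 on the BCAA-free diet (-0.31 to 0.15) and -0.33 on the control diet (-0.57 to -0.08). Sirt3, the main mitochondrial deacetylase, shared its region with Ric8 and Psmd13. It had TAC ratios of 0.16 (-0.01 to 0.33) and 0.20 (0.03 to 0.37) on those diets at a mean signal of 7.19. Sirt1 (mean 6.99) and Sirt2 (mean 6.52) had intervals that include 0 in all 4 comparisons at the region nearest to the start. Another region inside Sirt2 had TAC ratios of -0.05 (-0.31 to 0.22) on the BCAA-free diet and 0.41 (0.17 to 0.66) on the control diet. There, BCAA-free over control with TAC was -0.57 (-0.82 to -0.32). The strongest Sirt2 region, downstream, had TAC ratios of -0.32 and -0.18 on those diets. Across the 18 erasers the BCAA-free sham library was the highest for 11 genes (61.1%, against 29.4% of all genes) and the control TAC library the lowest for 8 (44.4%, against 20.9%). With the libraries scaled to the same median, these counts were 6 (33.3%, against 20.9% of all genes) and 8 (44.4%, against 23.3%). Their median TAC ratios were -0.08 on the BCAA-free diet and -0.04 on the control diet.

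Among the readers, Brd2, a BET bromodomain protein that binds acetylated histone H4, had the strongest region of all members and stood at the 99.4th percentile of all genes. It had 21.5 in BCAA-free TAC, 22.9 in BCAA-free sham, 23.1 in control TAC and 22.8 in control sham hearts. The peak heights were 186, 212, 213 and 231 in the same order. The libraries differed little, with a TAC ratio of -0.09 on the BCAA-free diet (-0.17 to -0.01) and 0.02 on the control diet (-0.06 to 0.10). The region (chr17:34109000-34132399) lies in the major histocompatibility complex and also lists H2-DMa and Gm19450. Brd3, the related BET gene, had 8.14, 7.62, 8.62 and 9.28 in the same order, lower on the BCAA-free diet with both surgeries. The ratio of BCAA-free over control was -0.07 with TAC (-0.21 to 0.06) and -0.25 with sham surgery (-0.39 to -0.12).

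The YEATS-domain readers, which prefer crotonyl over acetyl groups, had low signals apart from Yeats4. Yeats2, a subunit of ATAC, had 5.30 in BCAA-free TAC, 5.88 in BCAA-free sham, 5.14 in control TAC and 5.33 in control sham hearts, and all 4 ratios had intervals that include 0. Mllt1 (ENL) and Mllt3 (AF9), subunits of the super elongation complex, had means of 5.48 and 6.48, and Yeats4 (GAS41) one of 8.54. The start regions of all 3 were higher in TAC on both diets, each with an interval that includes 0. Their ratios were 0.09, 0.09 and 0.15 on the BCAA-free diet and 0.15, 0.16 and 0.14 on the control diet. Of the 5 Mllt3 regions, 3 were above 0 and 2 below 0 on both diets. The strongest, inside the gene with a mean of 8.46, was lower in TAC. Its ratios were -0.52 (-0.75 to -0.30) on the BCAA-free diet and -0.26 (-0.48 to -0.03) on the control diet. Dpf2, a double PHD finger subunit of BAF chromatin remodellers, had 14.2 in BCAA-free TAC, 16.3 in BCAA-free sham, 15.0 in control TAC and 16.4 in control sham hearts. Both TAC libraries were below both sham libraries, with ratios of -0.19 (-0.25 to -0.13) on the BCAA-free diet and -0.12 (-0.18 to -0.06) on the control diet, over the longest region of the set.

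The diet by surgery design asks whether the response to TAC differs between diets, and the difference of the TAC ratios, BCAA-free minus control, had a median of -0.06 over the members and -0.07 over all genes. It was highest at Hdac9 (0.40, interval 0.18 to 0.62) and Kat8 (0.36, 0.01 to 0.71). It was lowest at Kat2a (-0.45, -0.71 to -0.18), Sirt6 (-0.35, -0.67 to -0.03) and Kat5 (-0.32, -0.59 to -0.05). The Kat2a value is that of the region downstream of its start. TAC ratios had the same sign on both diets at 21 of 40 members (52.5%, against 63.5% of all genes), and at 18 (45%, against 65.9%) with the libraries scaled to the same median. A smaller threshold of 0.32 on the log2 scale was passed in TAC over sham by 0 members on the BCAA-free diet, where 5.28% of all genes were higher and 5.88% lower. On the control diet it was passed by Kat2a upwards and by Hdac9, Hdac6 and Sirt4 downwards, where 11.5% of all genes were higher and 7.6% lower. BCAA-free over control with TAC put Hdac6 and Kat8 above it and Kat2a below it, against 3.66% and 4.71% of all genes. With sham surgery Sirt6 alone was above it and 0 members below, against 7.55% and 3.64% of all genes. Among genes whose region holds a promoter and a CpG island, 2.69% were higher and 3.13% lower in TAC on the BCAA-free diet. On the control diet these shares were 7.48% and 4.28%. For BCAA-free over control they were 2.13% and 2.89% with TAC, and 4.77% and 2.01% with sham surgery.

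**Figure D5:**
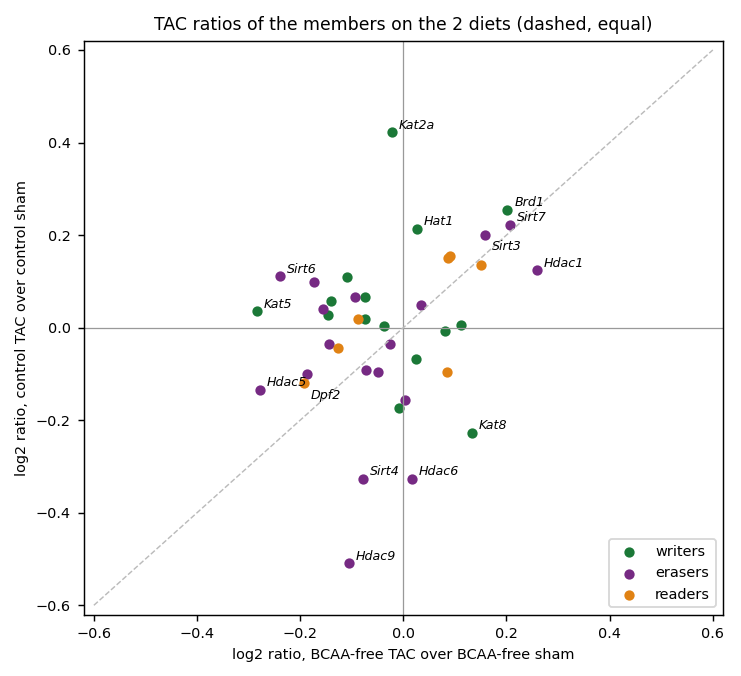
TAC over sham on the BCAA-free diet (horizontal) against the control diet (vertical), log2 ratios of the 40 genes coloured by role, with the dashed line marking equal ratios. The points spread more along the vertical axis, from -0.51 at Hdac9 to 0.42 at Kat2a, than along the horizontal axis, from -0.28 at Kat5 to 0.26 at Hdac1. The Kat2a point is a region downstream of the gene's start.

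Another 53 regions list 30 of the members, and 4 of them passed 1.5-fold in a comparison (7.55%, against 15.3% of all regions), all in TAC over sham on the control diet. Over all regions, 4.36% were higher and 5.31% lower there. A region upstream of Brd1 that also lists Zbed4 had 5.81 in BCAA-free TAC against 4.13 in BCAA-free sham hearts, and 8.23 in control TAC against 4.58 in control sham hearts, a ratio of 0.41 on the BCAA-free diet and 0.73 on the control diet. A region inside Kat8 that also lists Prss8 and Prss36 had ratios of 0.39 and 0.67 on those diets, and a region inside Yeats4 had 0.28 and 0.64. A region inside Kat6b, 136829 bases from its start, was lower, with 7.31 in BCAA-free TAC against 8.29 in BCAA-free sham hearts, and 6.12 in control TAC against 9.92 in control sham hearts. Its ratios were -0.16 and -0.62. A peak had been called only in control TAC at the Brd1 region and only in control sham at the Kat6b region. At the Kat8 and Yeats4 regions it had been called only in the TAC libraries. These regions are thus in the table through libraries where their signal is high, so the size of their ratios supports no difference. Of the 6 Kat6b regions, 5 were below 0 on each diet, and at the start itself the ratios were 0.02 and -0.07. The Kat6b region 110029 bases from the start also had a peak call only in control sham.

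Regions of the members away from promoters had lower median TAC ratios than their start regions. The 29 other regions that hold no promoter, from 13 of the genes, had median TAC ratios of -0.21 on the BCAA-free diet and -0.14 on the control diet, against -0.09 and 0.00 over 10056 such regions of all genes. Of these 29, 22 were below 0 on the BCAA-free diet and 19 on the control diet, or 22 and 20 with the libraries scaled to the same median. The shares as deposited, 75.9% and 65.5%, compare with 63.5% and 49.96% of such regions of all genes. Hdac4, Hdac9 and Kat6b, with 6, 5 and 6 listed regions each, contribute many of the 29 and most of those below 0 on the control diet. Neighbouring regions of 1 gene are not independent, so these medians and shares describe these genes more than the members as a set. Some of the 29 had a peak call only in sham libraries, as inside Crebbp, and others only in TAC libraries, as inside Kat7. Such regions are in the table through libraries where their signal is high, so these medians and shares support no difference between surgeries. The region nearest to the start was the strongest for 18 of the 30 members with several regions. For the other 12, a region elsewhere was stronger, as at Sirt3, where a region 25010 bases from the start that lists 5 other genes had a mean signal of 24.4, and at Sirt2, where one 46347 bases away had 18.4.

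Other genes of the same complexes and pathways, 72 by name, were measured in 66 cases. Their median TAC ratio was -0.01 on the BCAA-free diet and 0.08 on the control diet, against -0.03 and 0.05 over all genes. BCAA-free over control had a median of -0.09 with TAC and 0.02 with sham surgery, against -0.04 and 0.04. Dpf3, the heart and muscle paralogue of Dpf2 in BAF, was the 1 gene of 66 past 1.5-fold. It was lower in TAC on the control diet, where 2.1% of all genes were lower, and 7.24% of all genes passed in at least 1 comparison. A count of 1 does not set this list apart from these shares. It had 8.21 in BCAA-free TAC against 9.66 in BCAA-free sham hearts, and 6.60 in control TAC against 10.7 in control sham hearts, ratios of -0.21 and -0.63 on those diets.

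Markers of cardiac cell types moved with surgery and diet in the same libraries. Of 12 cardiomyocyte markers, 11 were lower in TAC on each diet, with summed signals of 97.5 in BCAA-free TAC, 120 in BCAA-free sham, 86.8 in control TAC and 134 in control sham hearts. All 12 had a region, and the lowest single value was 5.41. Markers of the other cell types had regions as well, so this does not identify the tissue. Of 11 leukocyte markers with a region, 9 were higher in TAC on the BCAA-free diet and 11 on the control diet, with sums of 97.2, 79.6, 114 and 82.2 in the same order. The 12 fibroblast markers had sums of 117, 121, 103 and 87.8, higher on the BCAA-free diet than on the control diet. The 12 endothelial markers summed to 122, 130, 128 and 146, and the 10 markers of smooth muscle and pericytes to 79.6, 82.6, 81.2 and 76.3. No marker with a region was at 0, but neither was any of the 17640 genes, whose lowest value was 1.87, in control TAC hearts. The part that cell type content has in the ratios of the members, such as the lower Hdac9, Hdac4 and Dpf3 signals in TAC hearts, was not tested.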

How the data were processed

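Per the submitters' processing notes, BWA, MACS2 and the build mm10 were used, with no version or role given. The authors deposited 1 table of 29210 merged regions with coordinates, gene lists and CpG island and promoter counts. Per the file headers, each library has 2 signal columns, the average value and the peak value of a region (densities of fragments), and a 0 or 1 for a peak call. The log2 ratios that the authors also deposited were not used, and their tag numbers only gave the divisor below. Region lengths are multiples of 200 bases.

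Log2((A + 1)/(B + 1)) of the average signal was computed with no filter, and called by size above 1.5-fold. With 1 library per group no test was made. Intervals are 95% and come from estimated tags (signal times length divided by 224), so they cover counting error only. Library medians of the signal over all regions were 6.80 in BCAA-free TAC, 7.10 in BCAA-free sham, 6.95 in control TAC and 6.89 in control sham hearts, and peaks were called in 22871, 23965, 23009 and 22513 regions. Median estimated tags per region ran from 198 to 205. The ratio step was tested on simulated counts.

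All values per library are given for the 2 members at each end of the ratios in each comparison, the 2 at each end of the mean signal, and Kat6a, Kat6b, Kat7, Brpf1, Ep300, Crebbp, Hdac1, Hdac2, Hdac3 and Sirt5. Further values, among them those of Sirt4, Dpf2, Hdac4, Hdac7 and single regions, were added after they were seen. The members and the lists of related and marker genes were chosen with earlier results of these data known. Promoter sequences are from RefSeq (GRCm38.p6, matched by symbol and position). Alternatives changed the measure, region, pseudocount, scaling, filter and threshold. Python 3.11.15, pandas 2.3.3, NumPy 2.4.6, statsmodels 0.14.6 and Matplotlib 3.10.9 were used.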

Additional observations from a re-analysis of the deposited data

How the results depend on the processing

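No paired analysis was possible because each group had 1 library. Among the medians and counts over the members, 141 values under the alternatives stayed close to those reported and 18 moved. A median was compared with its rank-based interval over the 40 members, such as -0.04 to 0.07 for TAC on the control diet. That interval treats genes of the same libraries as independent and holds no spread between hearts, so a value that stayed close is no replicate check. From a count of 0 any call counts as a move. With peak height in place of average signal, the median TAC ratio was -0.15 on the BCAA-free diet and -0.048 on the control diet, and that of BCAA-free over control in sham hearts was 0.15. The same change put 3 members above 1.5-fold in TAC over sham on the control diet (Kat2a 0.98, Hat1 0.62, Sirt3 0.62). It put 3 above in BCAA-free over control sham hearts (Hdac7 0.65, Hdac8 0.65, Kat8 0.61) and 1 above with TAC (Hdac6 0.86), against 7.55%, 5.33% and 2.82% of all genes by the same measure. A peak height is the single highest point of a region and rests on fewer fragments. With libraries scaled to the same median, the median of BCAA-free over control in sham hearts was -0.013. After removal of a smooth trend of the ratios over signal it was -0.00562, and the median difference between diets was 0.026. Scaling moved all regions by -0.06 to 0.04, which is as large as most medians here, so their signs carry no direction. With no pseudocount 1 member passed below on the control diet (Hdac9, -0.60) and 1 above in BCAA-free over control TAC hearts (Hdac6, 0.61), and a pseudocount of 0.1 gave 1 and 1 as well (-0.59 and 0.61, against 3.07% and 0.76% of all genes). At the smaller threshold of 0.32 on the log2 scale the counts were 1 higher and 3 lower in TAC over sham on the control diet, 1 higher in the sham diet comparison, and 2 higher and 1 lower in the TAC diet comparison. Leaving out members without a call in all 4 libraries, with a shared region, with a middle over 2500 bases from the start or with low signal left the counts past 1.5-fold at 0. So did keeping only regions that cover a RefSeq start, an alternative chosen after seeing the data. Apart from these thresholds the cause of each shift was not tested.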
